A study of Homo sapiens with 6 samples.

Results

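Ribosome biogenesis and RNA polymerase I genes were examined in HSC3, an established cell line from a human oral squamous cell carcinoma, after treatment with E7386 or with its solvent dimethyl sulfoxide (DMSO). The set was given as 60 gene symbols and followed through the steps of ribosome production. The annotation of the array named 57 of them among 23786 measured rows, and EBNA1BP2, DDX18 and GNL3 were not analysed here. One group held 3 wells of HSC3 cells treated with 0.1 μM E7386 in DMSO, and the other held 3 wells treated with 0.1% DMSO alone. Treatment began 12 to 24 hours after seeding, at about 50% confluency, and RNA was collected after 48 to 64 hours. E7386 is a small molecule described as blocking the interaction of β-catenin with the coactivator CBP. Per the labels' titles the wells are biological replicates of a single line, and nothing states that they came from separate experiments, so each p-value reflects well-to-well spread only, which may be technical.

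Ribosome production starts in the nucleolus, where RNA polymerase I (Pol I) copies the repeated ribosomal DNA into a long precursor RNA. Small nucleolar RNA particles then modify the precursor, box C/D particles by methylation of riboses and H/ACA particles by conversion of uridine to pseudouridine, while processing factors cut and fold it into the small and the large subunit. The pathway is known to be active in growing tumour cells, and its genes are classic targets of the transcription factor MYC.

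The members changed by small amounts and in both directions. Of 57 measured members 14 fell and 5 rose with E7386 at a limma adjusted p under 0.05, and 38 were not called. The called differences ran from 0.33 to 0.92 in size on the log2 scale, and no member reached a called difference of 1 (2-fold). Of all rows 2.59% did, and of rows in the range of the members' mean levels 4.82% did. The falls included 6 of 22 small subunit factors, while 3 of the 5 rises were in the Pol I step. Over all 23786 rows 18.6% were called, 9.93% as higher and 8.69% as lower, against 33.3% of members, 8.77% as higher and 24.6% as lower. Members lie among the brighter rows, and in the 9730 rows within the range of the members' mean levels 36.2% were called, 19.5% as higher and 16.7% as lower. The share of members called, 33.3%, was below the 36.2% of rows in that range, with more falls and fewer rises. The range runs from the lowest to the highest member mean, and rows within it were not matched to members by level. The share called lower was 12.5% in the Pol I step, 25% for the modification particles and 50% for nucleolar proteins of several steps. For the small and the large subunit it was 27.3% and 20%. In the same order of steps 37.5%, 12.5%, 0%, 0% and 6.67% were called higher. Groups did not overlap for 36 of the 57 members, 24 lower and 12 higher with E7386. The non-overlapping share was 35.2% over all rows and 61.2% over the rows in that range.

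The median difference over members was -0.10, against -0.016 over all rows and 0.026 over rows in the range of the members' levels. The mean of the members was 7.41, 7.44 and 7.45 in the E7386 wells, against 7.53, 7.57 and 7.50 in the DMSO wells. All values are log2 values after normalization of the arrays to one distribution, so a member's value is relative to the other transcripts. In these bulk samples fewer cells of a type and less RNA per cell cannot be told apart. MKI67, the proliferation marker, moved with the treatment, at 7.95, 7.98 and 7.94 in E7386 wells against 9.63, 9.72 and 9.77 in DMSO wells, and its part in the members' differences was not tested. The count of members called depended on single wells: it was 9 without the first E7386 well, 11 without the second, 9 without the third and 10 without the second DMSO well. Called in each of the 13 alternative fits were 9 members, POLR1C, RRN3 and NOP10 among the rises and POLR1E, NCL, RRP7A, BMS1, RRP36 and RRP1B among the falls.

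**Figure D1:**
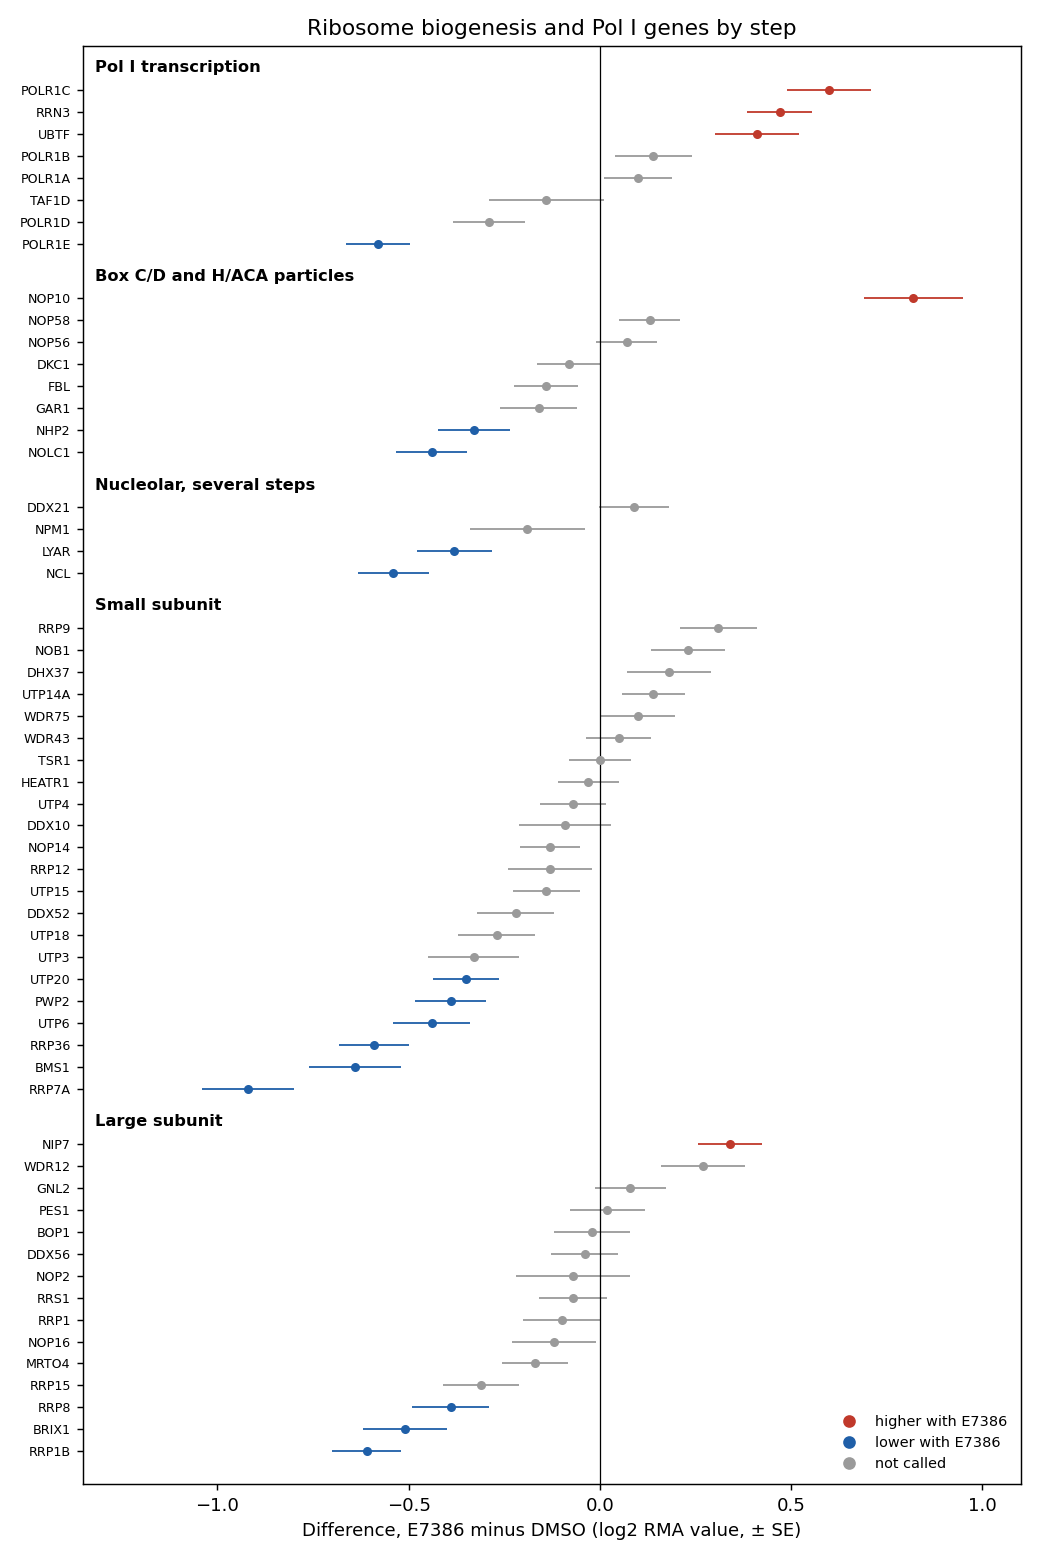
Difference between E7386 and DMSO wells on the log2 scale for the 57 measured members, grouped by step, with bars for the standard error (SE) from limma. Red marks the 5 members called higher and blue the 14 called lower with E7386; small subunit factors have blue points and no red one, and NOP10 stands furthest to the right at 0.82.

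In the Pol I step 3 of 8 members rose and 1 fell, with a median difference of 0.12. POLR1C, a subunit that Pol I shares with RNA polymerase III (Pol III), had values of 6.59, 6.57 and 6.82 in E7386 wells and 6.20, 5.96 and 6.03 in DMSO wells. The groups did not overlap, and the difference was 0.60 ± 0.11 (SE, n = 3 per group), or 1.51-fold (limma adjusted p = 0.0087). RRN3, the initiation factor that brings Pol I to the ribosomal promoter, had 7.30, 7.15 and 7.25 in E7386 wells and 6.76, 6.80 and 6.73 in DMSO wells. It rose by 0.47 ± 0.086 (limma adjusted p = 0.0085), with 4 RRN3 pseudogenes in the RefSeq table that could share its probes. UBTF, the DNA-binding factor that keeps ribosomal repeats open, rose by 0.41 ± 0.11, from values of 7.75, 7.91 and 7.91 in E7386 wells and 7.34, 7.37 and 7.62 in DMSO wells. The call of UBTF (limma adjusted p = 0.038) was kept without the third DMSO well and lost without each of the others (adjusted p = 0.053 to 0.12).

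POLR1E, which encodes the Pol I specific subunit PAF53, moved the other way. It had 7.02, 7.01 and 7.04 in E7386 wells against 7.65, 7.62 and 7.52 in DMSO wells, a fall of 0.58 ± 0.083, or 1.49-fold (limma adjusted p = 0.0033). The 3 E7386 values lay within 0.03 of each other and well below every DMSO value. The catalytic subunits were not called: POLR1A, the largest subunit, differed by 0.10 ± 0.088 and POLR1B, the second largest, by 0.14 ± 0.10. POLR1D, the partner of POLR1C in both polymerases, had 7.52, 7.52 and 7.51 in E7386 wells and 7.74, 7.95 and 7.73 in DMSO wells. Its difference of -0.29 ± 0.094 missed the threshold (limma adjusted p = 0.074), although the groups did not overlap. TAF1D, a subunit of the promoter selectivity factor SL1, differed by -0.14 ± 0.15, with the second DMSO well at 8.54 above the other 5 wells.

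Among 8 further Pol I factors 3 fell and none rose (limma; unadjusted p under 0.05 for 4 lower and 0 higher), with a median of -0.21. That was 37.5% called lower, against 16.7% of rows in the range of the members' levels. POLR1G, the binding partner of POLR1E in the polymerase, had 5.11, 5.26 and 5.30 in E7386 wells and 5.90, 5.69 and 5.57 in DMSO wells. It fell by 0.50 ± 0.11, so both members of this pair were lower with E7386. The call of POLR1G (limma adjusted p = 0.020) was lost without the first or second E7386 well or the first or second DMSO well (adjusted p = 0.0501 to 0.069). TAF1B, an SL1 subunit related to TFIIB, fell by 0.51 ± 0.079, to 7.17, 7.16 and 7.13 in E7386 wells against 7.67, 7.66 and 7.67 in DMSO wells. TCOF1, the nucleolar protein treacle that binds UBTF and Pol I, fell by 0.95 ± 0.089, or 1.93-fold (limma adjusted p = 5.4e-04), to 6.69, 6.74 and 6.77 in E7386 wells against 7.62, 7.63 and 7.79 in DMSO wells.

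The 250 bases before the annotated start of POLR1C are shown because it had the largest called difference of the Pol I step (RefSeq, GRCh38.p14, chr6:43516839-43517088, plus strand). Capitals mark CGGAAG, the core bound by ETS family factors, on either strand; the pair in the middle overlaps.
POLR1C: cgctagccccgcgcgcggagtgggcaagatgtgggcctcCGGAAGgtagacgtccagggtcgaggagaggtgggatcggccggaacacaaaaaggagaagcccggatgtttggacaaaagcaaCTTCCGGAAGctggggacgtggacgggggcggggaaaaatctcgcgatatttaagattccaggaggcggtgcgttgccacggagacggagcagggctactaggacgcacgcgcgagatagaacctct

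Among 8 proteins of the modification particles 1 rose and 2 fell, with a median of -0.11, and the falls numbered 0 to 2 when single wells were left out. NOP10, a small core protein of H/ACA particles that touches the pseudouridine synthase, had 8.65, 8.82 and 8.75 in E7386 wells and 7.64, 8.04 and 8.07 in DMSO wells. It rose by 0.82 ± 0.13, or 1.77-fold (limma adjusted p = 0.0051), the largest rise of the 57 members, and the groups did not overlap although the first DMSO well lay below the other DMSO wells. NHP2, another core protein of the same particle, fell by 0.33 ± 0.094, with 7.22, 7.27 and 7.32 in E7386 wells and 7.48, 7.71 and 7.62 in DMSO wells. That call was marginal (limma adjusted p = 0.048). It was lost with median centring of the arrays, the replicate number as a block or the ordinary two-sample test. It was also lost without any one well except the first DMSO well (limma adjusted p = 0.10 to 0.13). DKC1, the pseudouridine synthase, and GAR1, the remaining core protein, differed by -0.08 ± 0.084 and -0.16 ± 0.10. NOLC1, a chaperone of both kinds of particle, fell by 0.44 ± 0.093, to 8.50, 8.67 and 8.63 in E7386 wells against 8.96, 9.12 and 9.02 in DMSO wells. The NOLC1 call (limma adjusted p = 0.016) was lost without the first E7386 well (adjusted p = 0.056), the third E7386 well (0.052) or the second DMSO well (0.053).

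The box C/D proteins did not pass the test. FBL, the methyltransferase fibrillarin, differed by -0.14 ± 0.084, NOP56 by 0.07 ± 0.080 and NOP58 by 0.13 ± 0.081 (limma adjusted p = 0.34, 0.61 and 0.36). Each of the 3 had groups that did not overlap, because the wells of a group lay close together: NOP58 had 10.02, 10.03 and 10.02 in E7386 wells against 9.95, 9.91 and 9.84 in DMSO wells. Of 8 further factors that assemble the particles 1 fell and none rose (limma; unadjusted p under 0.05 for 4 lower and 0 higher). It was RUVBL2, an ATPase of the assembly chaperone R2TP, which had 7.40, 7.34 and 7.55 in E7386 wells and 8.13, 8.19 and 8.28 in DMSO wells, a fall of 0.77 ± 0.096, or 1.70-fold (limma adjusted p = 0.0018). For its partner RUVBL1 the difference was 0.10 ± 0.080 (limma adjusted p = 0.47).

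The bases before the start of NOP10 are shown because it rose most (RefSeq, GRCh38.p14, chr15:34343137-34343386, minus strand). Capitals mark CACGTG, the E-box bound by MYC and related factors, and CGGAAG, here as its reverse complement CTTCCG.
NOP10: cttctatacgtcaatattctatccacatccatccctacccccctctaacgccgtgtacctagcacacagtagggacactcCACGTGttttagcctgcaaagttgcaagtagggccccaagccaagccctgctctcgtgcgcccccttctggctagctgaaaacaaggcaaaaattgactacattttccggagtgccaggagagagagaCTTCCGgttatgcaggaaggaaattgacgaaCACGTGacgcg

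Of the abundant nucleolar proteins that act in several steps, 2 of 4 fell. NCL, which encodes nucleolin, a histone chaperone and RNA-binding protein of the nucleolus, had 10.37, 10.43 and 10.40 in E7386 wells and 10.93, 11.06 and 10.83 in DMSO wells. It fell by 0.54 ± 0.093, or 1.46-fold (limma adjusted p = 0.0068), and the groups did not overlap. LYAR, a nucleolar zinc finger protein, fell by 0.38 ± 0.099, to 5.42, 5.63 and 5.57 in E7386 wells against 5.86, 6.04 and 5.87 in DMSO wells, and its call (limma adjusted p = 0.034) was lost without any one of the 6 wells (adjusted p = 0.058 to 0.10). NPM1, which encodes the multifunctional protein nucleophosmin, differed by -0.19 ± 0.15, with overlapping groups and 50 pseudogenes in the RefSeq table, so its value is uncertain. Pseudogenes number 2 each for NCL and NHP2, 3 for NIP7 and 1 each for LYAR, NOLC1 and BRIX1. DDX21, an RNA helicase of Pol I transcription and processing, differed by 0.09 ± 0.091.

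The bases before the start of NCL are shown for the same reason, the largest called difference of its group (RefSeq, GRCh38.p14, chr2:231464485-231464734, minus strand). They hold neither CACGTG nor CGGAAG on either strand and so have no capitals.
NCL: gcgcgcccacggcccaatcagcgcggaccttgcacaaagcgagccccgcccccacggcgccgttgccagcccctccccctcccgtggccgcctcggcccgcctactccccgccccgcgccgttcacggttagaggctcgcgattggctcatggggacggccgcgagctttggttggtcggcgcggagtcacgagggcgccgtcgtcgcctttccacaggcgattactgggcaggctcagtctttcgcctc

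Of 22 small subunit members 6 fell, none rose and 16 were not called (limma; unadjusted p under 0.05 for 8 lower and 2 higher), with a median difference of -0.13. Leaving out single wells gave 3 to 4 falls, and the other settings gave 4 to 8 falls and 0 to 1 rises. RRP7A, a component of the small subunit processome, the large particle that assembles on the nascent precursor, had 5.71, 5.75 and 5.80 in E7386 wells and 6.43, 6.84 and 6.75 in DMSO wells. It had the largest fall of the 57 members, 0.92 ± 0.12, or 1.89-fold (limma adjusted p = 0.0023), and the RefSeq table lists the related pseudogene RRP7BP. BMS1, a GTPase of the processome, fell by 0.64 ± 0.12 (limma adjusted p = 0.0087), to 6.92, 6.85 and 6.89 in E7386 wells against 7.50, 7.73 and 7.33 in DMSO wells. BMS1 has 21 pseudogenes in that table, so its value is uncertain. RRP36, an early processing factor, fell by 0.59 ± 0.091 (limma adjusted p = 0.0044), with 6.63, 6.83 and 6.81 in E7386 wells and 7.32, 7.35 and 7.37 in DMSO wells.

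The remaining small subunit falls were smaller, and their calls were lost in most fits that left out a well. UTP6, of the processome's UTP-B complex, had 7.24, 7.12 and 7.22 in E7386 wells and 7.72, 7.71 and 7.47 in DMSO wells, a fall of 0.44 ± 0.10. PWP2, the founding subunit of the same complex, had 5.71, 5.75 and 5.64 in E7386 wells and 6.16, 5.97 and 6.14 in DMSO wells, a fall of 0.39 ± 0.093. UTP20, a very large processome scaffold, had 6.84, 6.86 and 6.80 in E7386 wells and 7.09, 7.26 and 7.20 in DMSO wells, a fall of 0.35 ± 0.086. For each of the 3 the groups did not overlap, but each call was lost when all but 1 of the wells were left out in turn. The exception was the third DMSO well for UTP6 (otherwise limma adjusted p = 0.051 to 0.083), the second DMSO well for PWP2 (0.060 to 0.092) and the first DMSO well for UTP20 (0.075 to 0.10).

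The complexes of the processome were grouped after their values were seen. UTP-A, the complex tied to Pol I transcription, comprises HEATR1, UTP4, UTP15, WDR43 and WDR75 among the members and NOL11 outside them. None of the 6 was called (limma; unadjusted p under 0.05 for 1 lower and 0 higher), with differences from -0.28 for NOL11 to 0.10 for WDR75. HEATR1 was the flattest of them, at 8.26, 8.22 and 8.24 in E7386 wells against 8.26, 8.25 and 8.29 in DMSO wells. Within UTP-B, PWP2 and UTP6 fell, UTP18 differed by -0.27 ± 0.10, and the non-members WDR3 and WDR36 differed by -0.14 ± 0.089 and 0.11 ± 0.081. TBL3, also of UTP-B, rose by 0.31 ± 0.084 (limma adjusted p = 0.041), a call lost without any one of the 6 wells (adjusted p = 0.076 to 0.14).

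The other small subunit members were not called. RRP9, a protein specific to the U3 particle that guides the early cuts, had 4.68, 4.98 and 4.82 in E7386 wells and 4.54, 4.48 and 4.53 in DMSO wells, a difference of 0.31 ± 0.10 with groups that did not overlap (limma adjusted p = 0.077). NOB1, the endonuclease of the final 18S cut, differed by 0.23 ± 0.097 and TSR1, a GTPase-like factor of late cytoplasmic particles, by 0.00 ± 0.081. DHX37, the helicase that removes U3, differed by 0.18 ± 0.11. UTP3, UTP14A, NOP14, RRP12, DDX10 and DDX52 lay between -0.33 and 0.14.

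The bases before the start of RRP7A are shown because it fell most (RefSeq, GRCh38.p14, chr22:42519797-42520046, minus strand). Neither motif is present on either strand.
RRP7A: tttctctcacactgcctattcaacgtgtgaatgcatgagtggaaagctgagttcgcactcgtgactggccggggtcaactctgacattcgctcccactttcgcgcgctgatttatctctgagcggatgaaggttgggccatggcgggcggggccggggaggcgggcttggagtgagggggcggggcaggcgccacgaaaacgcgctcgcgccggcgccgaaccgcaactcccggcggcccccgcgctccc

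In the large subunit step 3 of 15 measured members fell and 1 rose, with a median of -0.07; without single wells 1 to 3 fell and none rose. RRP1B, a nucleolar processing factor, had 6.49, 6.43 and 6.37 in E7386 wells and 6.99, 6.99 and 7.14 in DMSO wells, and fell by 0.61 ± 0.090, or 1.52-fold (limma adjusted p = 0.0036). BRIX1, a factor of early large subunit particles, had 8.72, 8.97 and 8.84 in E7386 wells and 9.26, 9.53 and 9.28 in DMSO wells, and fell by 0.51 ± 0.11. RRP8, a methyltransferase of the large subunit RNA, had 5.50, 5.40 and 5.49 in E7386 wells and 5.88, 5.98 and 5.69 in DMSO wells, and fell by 0.39 ± 0.10. The groups did not overlap for any of these 3, and RRP1B kept its call without each well in turn. BRIX1 (limma adjusted p = 0.019) lost it without the first E7386 well (0.065), the third E7386 well (0.065) or the second DMSO well (0.054), and RRP8 (0.038) kept it only without the third DMSO well (0.080 to 0.12 otherwise).

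NIP7, a precursor processing factor, was the large subunit member that rose, by 0.34 ± 0.084, with 8.28, 8.28 and 8.38 in E7386 wells and 8.02, 7.98 and 7.93 in DMSO wells. Its groups did not overlap, but the call (limma adjusted p = 0.029) was lost without any one of the 6 wells (adjusted p = 0.051 to 0.11). The PeBoW complex, which PES1, BOP1 and WDR12 form and which is needed to process the large subunit precursor, had no called subunit (limma; unadjusted p under 0.05 for 1 higher and 0 lower). PES1 differed by 0.02 ± 0.098 and BOP1 by -0.02 ± 0.10, with overlapping groups, while WDR12 differed by 0.27 ± 0.11 without overlap (limma adjusted p = 0.14). RRP15, a nucleolar processing factor, and MRTO4, a relative of the stalk protein RPLP0, differed by -0.31 ± 0.10 and -0.17 ± 0.087. The other uncalled members, NOP16, RRP1, NOP2, RRS1, DDX56 and GNL2, lay between -0.12 and 0.08.

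**Figure D2:**
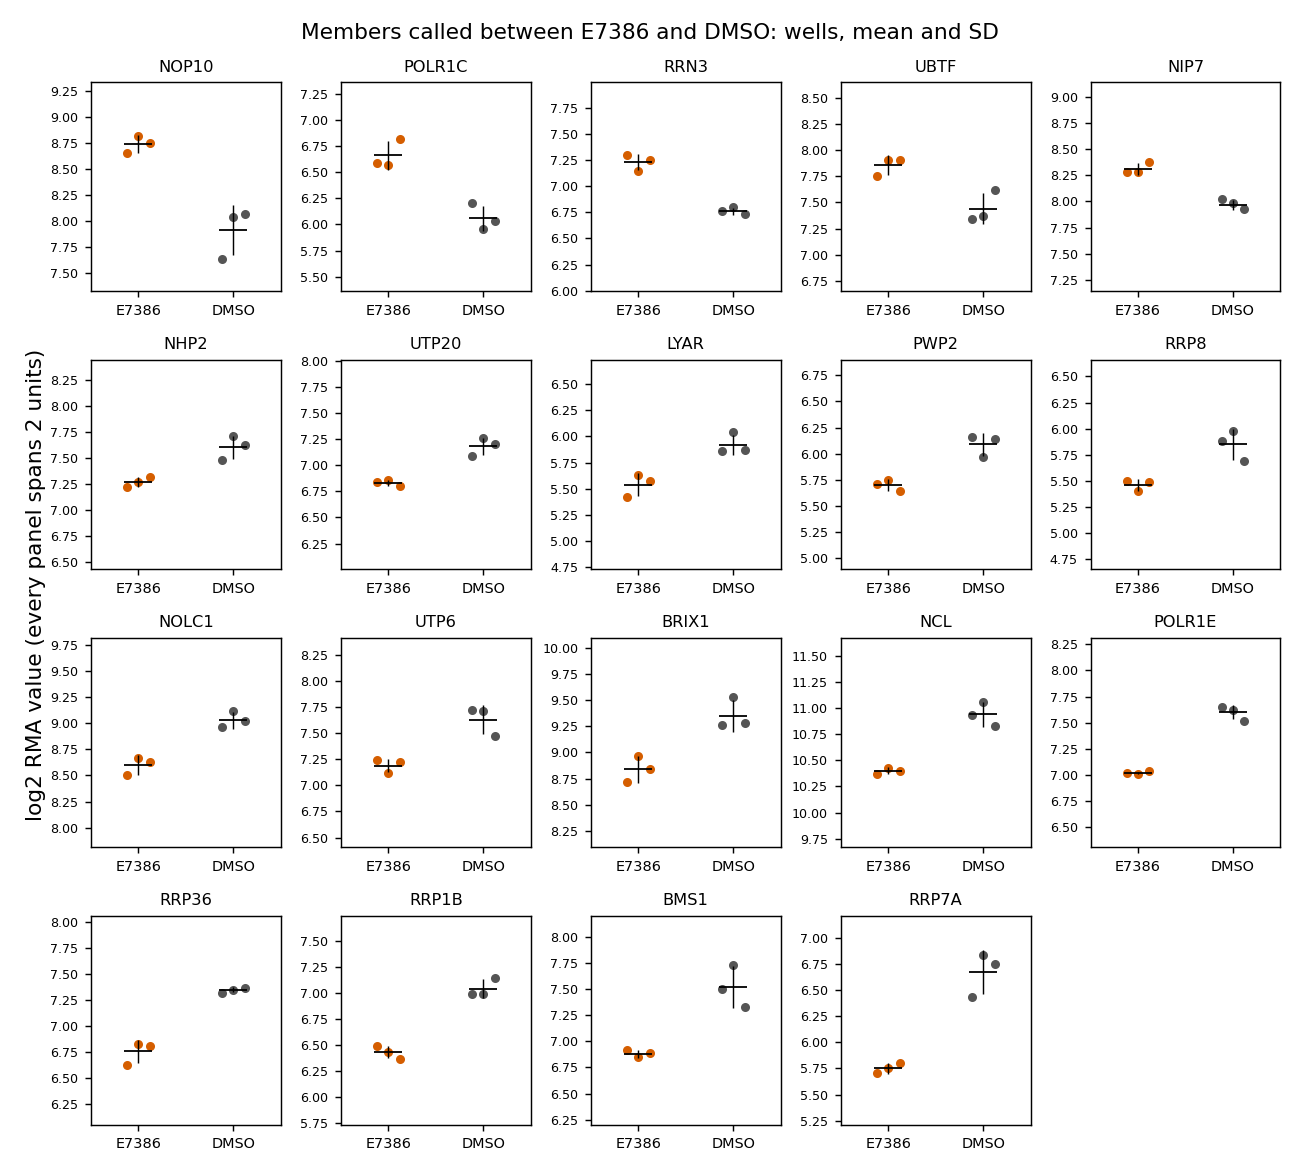
Log2 RMA values of the 19 called members in each well, E7386 to the left of DMSO, with horizontal bars for the mean and vertical bars for the SD (n = 3 per group). Every panel spans the same number of log2 units; in each panel the 3 wells of one group lie on one side of the other group, and the means differ most for RRP7A, by 0.92, and NOP10, by 0.82.

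Among 91 measured assembly factors in 4 further lists (Pol I, particle assembly, small and large subunit) 16 fell, 5 rose and 70 were not called, and their median difference was -0.09. The share called lower, 17.6%, was near the 16.7% of rows in the range of the members' levels, and the share called higher was 5.49%, against 19.5% of those rows. In the list of 37 other small subunit factors 5 fell (13.5%) and 4 rose (10.8%), both below the shares of those rows. RIOK2, the kinase of late small subunit particles, rose by 1.08 ± 0.13, or 2.12-fold (limma adjusted p = 0.0014), to 7.01, 7.11 and 7.11 in E7386 wells against 5.87, 6.25 and 5.86 in DMSO wells. DIMT1, a dimethylase of 18S RNA, rose by 0.57 ± 0.088, and DDX49, a helicase, rose by 0.34 ± 0.086, a call lost without any one well (limma adjusted p = 0.064 to 0.12). NAT10, the acetyltransferase of 18S RNA, fell by 0.85 ± 0.083 (limma adjusted p = 6.6e-04), to 8.15, 8.13 and 8.20 in E7386 wells against 9.07, 8.97 and 8.97 in DMSO wells. NOC4L and NOP9, nucleolar processing factors, fell by 0.61 ± 0.10 and 0.48 ± 0.11, and the NOP9 call was lost without the second or the third E7386 well or the first or second DMSO well (limma adjusted p = 0.056 to 0.078). Leaving out single wells gave 2 to 4 falls and 2 rises in this list.

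Of 38 other large subunit factors 7 fell and 1 rose, or 2 to 4 falls and 1 rise without single wells. In this list 18.4% were called lower and 2.63% higher, against 16.7% and 19.5% of rows in the range of the members' levels. The rise was that of EIF6, which keeps the new large subunit from joining the small one, by 0.85 ± 0.085, or 1.80-fold (limma adjusted p = 7.3e-04), to 9.48, 9.50 and 9.55 in E7386 wells against 8.72, 8.57 and 8.69 in DMSO wells. FTSJ3, a ribose methyltransferase, fell by 0.69 ± 0.084, NSA2, a factor of nuclear particles, by 0.59 ± 0.12, and RBM28, a nucleolar RNA-binding protein, by 0.39 ± 0.091. The NSA2 call was lost with the ordinary two-sample test. The RBM28 call (limma adjusted p = 0.023) was lost without the first or the third E7386 well or the second or the third DMSO well (0.062 to 0.085). Among 16 measured exosome and trimming genes 4 fell and 1 rose, or 1 to 3 falls and 1 rise without single wells. The share called was 31.2%, against 18.6% of all rows and 36.2% of rows in the range of the members' levels. EXOSC4, an exosome ring subunit, rose by 0.78 ± 0.16, while the subunits EXOSC7 and EXOSC3 fell by 0.41 ± 0.083 and 0.37 ± 0.094 and XRN2, the exonuclease that trims 5′ ends, by 0.42 ± 0.091. Of these, EXOSC4 kept its call without each well in turn but lost it with the ordinary two-sample test. EXOSC7 lost its call without the second E7386 well (limma adjusted p = 0.056). XRN2 lost it without the first or the third E7386 well or the second DMSO well (limma adjusted p = 0.052 to 0.058). EXOSC3 lost it without each well but the third DMSO well (limma adjusted p = 0.056 to 0.11). The EXOSC3 call was also lost with the ordinary two-sample test and with the replicate number as a block.

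Ribosomal protein genes encode the proteins that the assembly factors join to the RNA. Of 80 listed genes the annotation named 51, of which 15 fell, none rose and 36 were not called (limma; unadjusted p under 0.05 for 19 lower and 2 higher), with a median of -0.19; the falls numbered 9 to 13 when single wells were left out, and the other settings gave 0 to 3 rises. RPS14, of the small subunit, fell by 1.05 ± 0.081, or 2.07-fold (limma adjusted p = 2.4e-04), to 7.31, 7.24 and 7.23 in E7386 wells against 8.28, 8.31 and 8.34 in DMSO wells. RPL36AL fell by 1.02 ± 0.15 and RPS29 by 1.01 ± 0.14, and all 3 kept their calls without each well in turn. Over this list 29.4% were called lower, against 8.69% of all rows and 16.7% of rows in the range of the members' levels. Ribosomal protein genes have many processed pseudogenes that can share probes, so single values are uncertain.

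Pol III makes the 5S RNA and shares POLR1C and POLR1D with Pol I. Of 21 measured Pol III genes outside the member set 4 rose, 2 fell and 15 were not called, with a median of 0.08. The share called, 28.6%, was below the 36.2% of rows in the range of the members' levels, and leaving out single wells gave 3 to 4 rises and 1 to 2 falls. POLR3C, a subunit of the initiation subcomplex, rose by 0.89 ± 0.083, or 1.85-fold (limma adjusted p = 5.2e-04), to 8.80, 8.87 and 8.93 in E7386 wells against 7.95, 7.99 and 7.99 in DMSO wells. POLR3D, another subunit, rose by 0.74 ± 0.11 and MAF1, the repressor of Pol III, by 0.57 ± 0.11. GTF3C5 and GTF3C1, subunits of the factor TFIIIC, fell by 0.48 ± 0.097 and 0.46 ± 0.091, and GTF3C5 lost its call without the second E7386 well (limma adjusted p = 0.052).

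In the MYC network 3 of 12 genes rose and none fell (limma; unadjusted p under 0.05 for 4 higher and 0 lower). The share called higher was 25%, against 9.93% of all rows and 19.5% of rows in the range of the members' levels. MYC itself rose by 0.43 ± 0.086, with 9.36, 9.37 and 9.44 in E7386 wells and 8.89, 9.04 and 8.94 in DMSO wells (limma adjusted p = 0.012, and 0.054 without the third E7386 well). MXD1 and MXI1, which pair with MAX and oppose MYC at E-boxes, rose by 0.73 ± 0.089 and 0.69 ± 0.12, and MAX differed by 0.05 ± 0.088. Leaving out single wells gave 2 to 4 rises in this network.

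**Figure D3:**
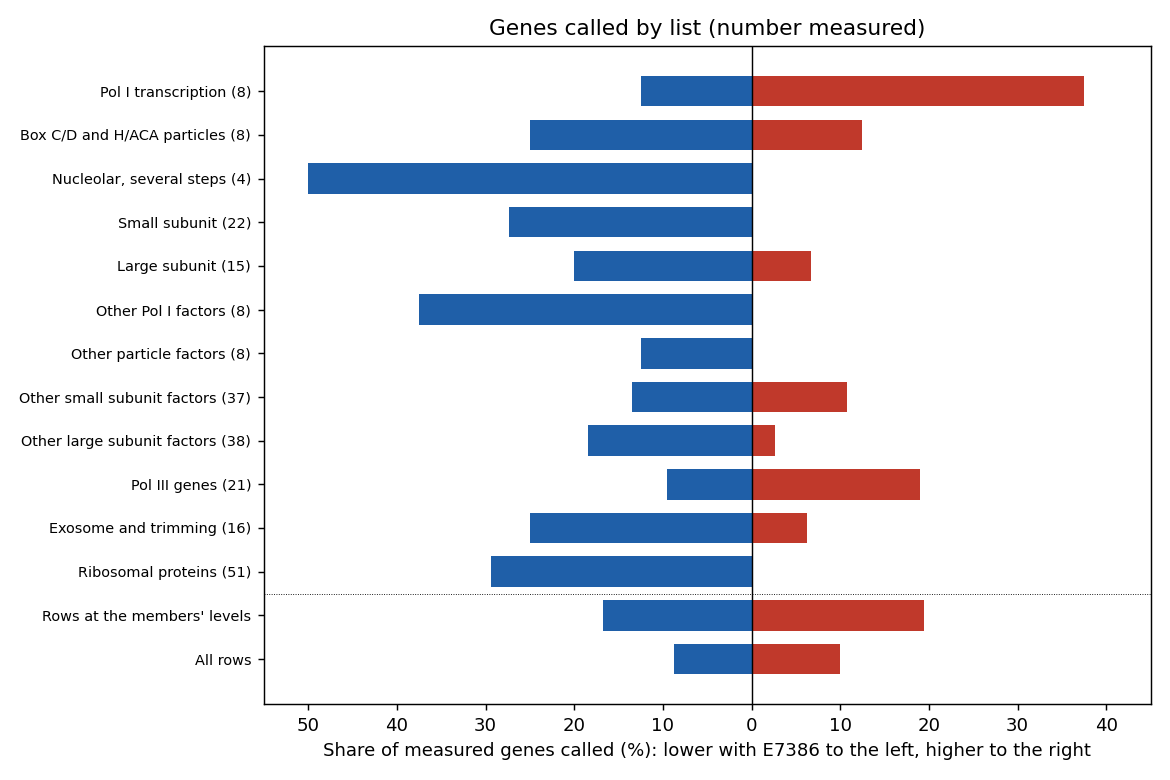
Share of the measured genes of each list that were called lower (blue, to the left of 0) or higher (red, to the right of 0) with E7386, in percent, with the number measured in parentheses. The bottom bars give the same shares for rows in the range of the members' levels (16.7% lower, 19.5% higher) and for all rows (8.69% lower, 9.93% higher); lists of 4 or 8 genes move in large jumps with single calls.

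Several members carry small nucleolar RNA (snoRNA) genes inside them, and the array holds rows for these as well. Of 26 snoRNAs listed for 7 host genes, all lie within the span of their host in the RefSeq table. Of these 23 were measured, and 3 rose and 3 fell. The shares were 13% higher and 13% lower, against 9.93% and 8.69% of all rows. Of rows in the range of the members' levels 19.5% were called higher and 16.7% lower, but some snoRNAs were dimmer than that range. SNORD92, within WDR43, had 5.17, 5.03 and 5.05 in E7386 wells and 3.51, 4.21 and 4.50 in DMSO wells, a rise of 1.01 ± 0.23, whereas WDR43 differed by 0.05 ± 0.085. SNORA36A, within DKC1, had 6.72, 7.11 and 6.52 in E7386 wells and 6.00, 5.86 and 5.62 in DMSO wells, a rise of 0.96 ± 0.17 beside the -0.08 of its host. SNORD70, within NOP58, rose by 0.59 ± 0.14, while SNORD6 and SNORA32, both within TAF1D, fell by 0.51 ± 0.12 and 0.41 ± 0.10 and SNORD19, within GNL3, which the annotation did not name, by 0.42 ± 0.11. The 3 snoRNAs of NCL, SNORD20, SNORD82 and SNORA75, were not called and lay between -0.21 and 0.19, whereas NCL fell by 0.54; differences between a host and its snoRNAs were not tested.

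All of these 6 calls were lost with the ordinary two-sample test. With single wells left out, SNORA36A (limma adjusted p = 0.0078) held without each well in turn. SNORD92 lost its call without any one E7386 well (limma adjusted p = 0.060 to 0.068), SNORD70 without the second or the third E7386 well or the first or the third DMSO well (0.0504 to 0.088) and SNORD6 without the second or the third E7386 well or the first or second DMSO well (0.053 to 0.079). SNORA32 and SNORD19 lost it without any one well (0.052 to 0.10 and 0.054 to 0.10). Such short genes leave room for few probes, and a value cannot tell the mature snoRNA from the unspliced host transcript.

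**Figure D4:**
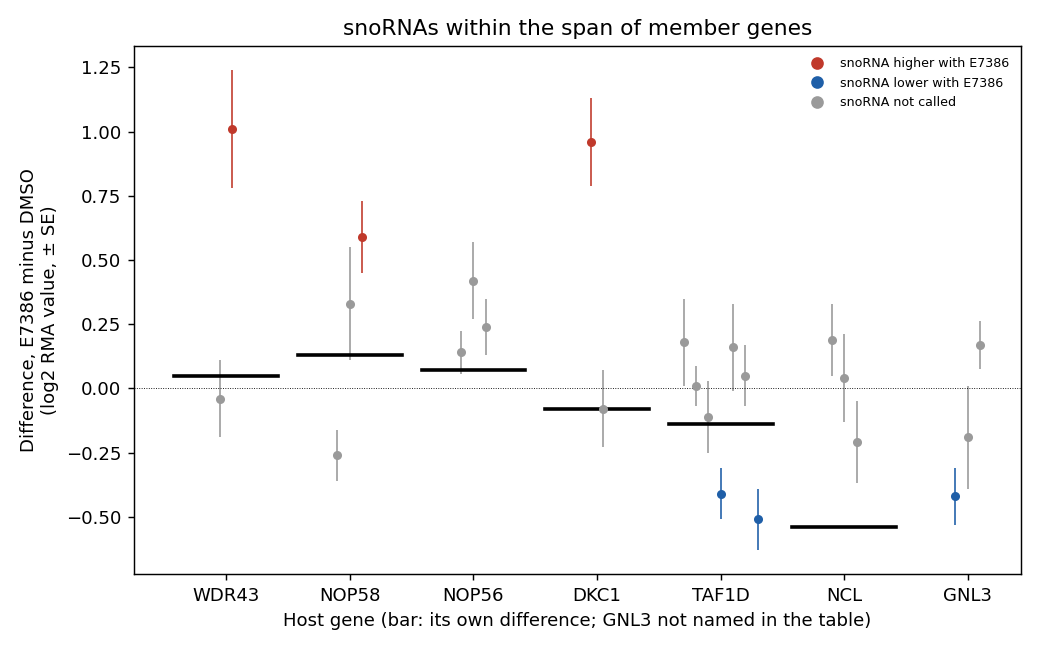
Difference between E7386 and DMSO wells on the log2 scale (± SE) for 23 snoRNAs, one point each, placed above the host gene that contains them; a black bar gives the host's own difference, except for GNL3, which the annotation did not name and which has no bar. SNORD92 in WDR43 and SNORA36A in DKC1 lie near 1 while their hosts lie near 0, and the 3 snoRNAs of NCL lie above its bar at -0.54.

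The sequence around the start of the members was searched for the E-box CACGTG, which is its own reverse complement, and for CGGAAG on both strands. RefSeq starts were found for 49 of the 57 members and not for BOP1, DDX52, NOLC1, NOP58, POLR1E, RRP12, RRP1B and RRS1. Within 250 bases before and 50 bases after the start, CACGTG occurred in 18 members, or 36.7%, against 8.77% of 27305 genes and 10.9% of the protein-coding genes among them. In the 250 bases before the start alone it occurred in 7 members, or 14.3%, against 7.73% of all genes, so most of these members have the E-box in the first 50 transcribed bases. CGGAAG occurred in 28 members in the 250 bases before the start, or 57.1%, against 19.4% of all genes and 25.7% of protein-coding genes.

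Calls were counted with and without each motif, and the differences between these counts were not tested. In the window that includes 50 bases after the start 18 members had an E-box. Of these 4 were called, NOP10 as higher and LYAR, PWP2 and UTP20 as lower. Of the 31 without one 12 were called, 4 higher and 8 lower. In the 250 bases before the start alone, 3 of 7 members with an E-box and 13 of 42 without one were called. Which side had the larger share called thus depended on the window. The median difference was -0.07 with the E-box and -0.10 without it. Of the 28 with CGGAAG before the start 10 were called, 4 higher and 6 lower, and of the 21 without it 6 were called, 1 higher and 5 lower. A match is a string in the sequence and not a site shown to be bound.

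The E-boxes of the 4 called members are shown with up to 12 bases on each side, CACGTG in capitals, in the direction of transcription. They lie at chr15:34343130-34343159 (minus strand) and chr15:34343289-34343318 (minus) for NOP10, chr4:4290068-4290097 (minus) for LYAR, chr21:44107388-44107417 (plus) for PWP2 and chr12:101280083-101280112 (plus) for UTP20, in GRCh38.p14. The E-box of PWP2 begins at transcribed base 2, and those of UTP20 and LYAR begin 10 and 64 bases before the start. FBL, not called, is added because its E-box at transcribed base 7 shows the more common place (chr19:39846356-39846385, minus strand).
NOP10, near: gaaattgacgaaCACGTGacgcggtcgggc
NOP10, far: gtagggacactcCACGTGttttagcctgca
LYAR: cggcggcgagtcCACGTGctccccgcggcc
PWP2: tgagctgcggcaCACGTGcgacggccgtga
UTP20: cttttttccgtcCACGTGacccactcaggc
FBL: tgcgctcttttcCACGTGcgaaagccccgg

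The arrays as a whole separated by treatment. Scores on the first principal component, with 58.6% of the variance, were 28.9 to 30.5 for E7386 wells and -30.6 to -28.9 for DMSO wells, and correlations across genes were 0.992 to 0.995 within and 0.982 to 0.985 between groups. Squamous epithelial markers were high, with the 7 measured of 10 between 7.13 and 11.67, and 2 of them fell, 1 rose and 4 were not called. KRT14 and KRT5, keratins of the basal layer, fell by 1.64 ± 0.11 and 0.79 ± 0.081 (limma adjusted p = 1.4e-04 and 8.1e-04), and DSG3, a desmosomal cadherin, rose by 0.59 ± 0.094 (0.0049). Markers of fibroblasts, leukocytes and endothelium lay between 0.84 and 5.53, COL1A1 highest, and none of the 18 measured was called (limma; unadjusted p under 0.05 for 1, CD14, lower, which was called without the first E7386 well at an adjusted p of 0.0037). Member values ran from 4.48 to 11.06, above the array medians of 3.74 to 3.79.

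**Figure D5:**
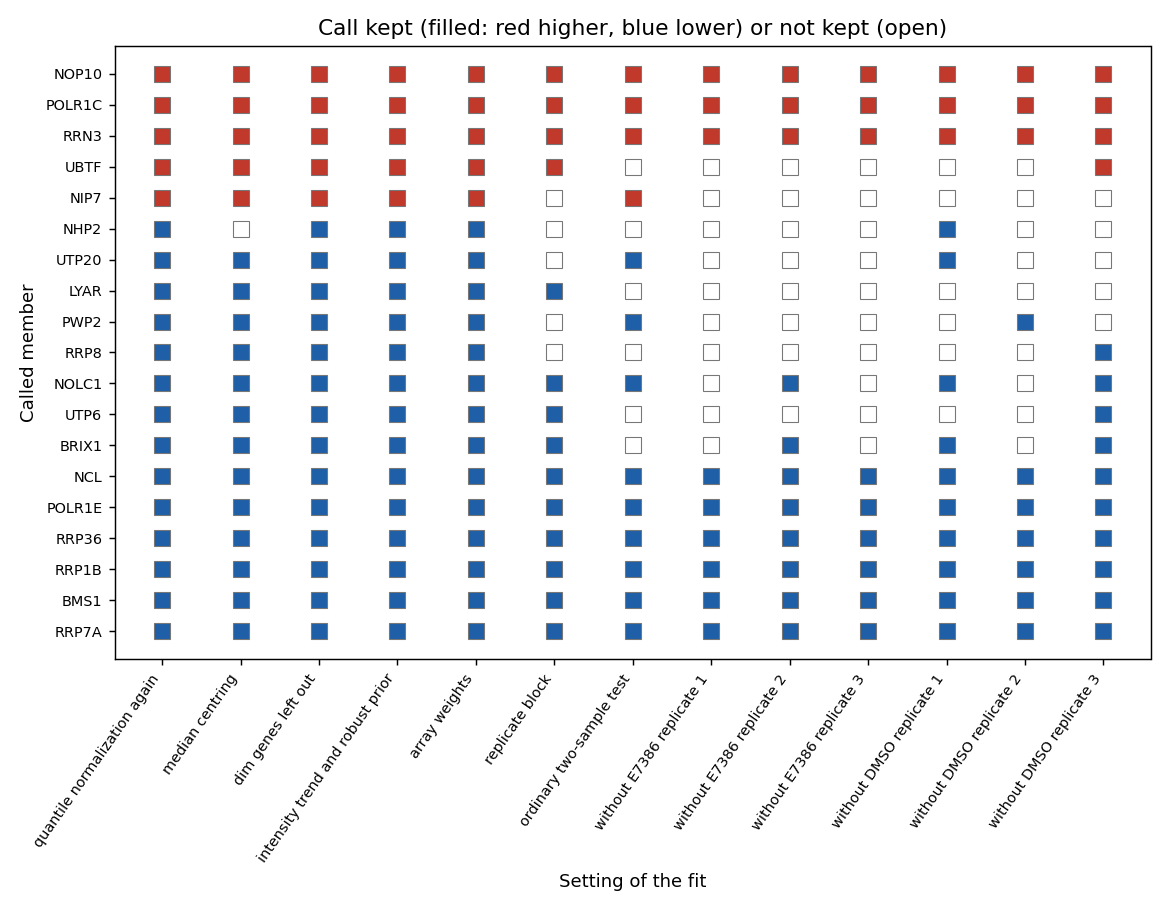
Whether each of the 19 called members (rows) was called in the same direction under each of 13 alternative fits (columns), filled where it was and open where it was not, red for higher and blue for lower with E7386. Filled throughout are 9 rows, and most open squares lie in the 6 columns that leave out a well.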

How the data were processed

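Total RNA of 6 wells was hybridised to 1 array per well, per the labels' protocols. The authors deposited log2 expression values made with RMA and affy 1.36.1 (per the submitters' processing notes). This method corrects background, equalises the array distributions and compresses differences of dim genes. How probes were joined into sets is not stated. The platform annotation gave 1 symbol to 22458 of 23786 rows and several to none; 1328 rows stayed in the fits unnamed.

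The deposited log2 values were fitted without further normalization with limma 3.58.1 in R 4.3.3, treatment as the only term. The p-values, two-sided, received Benjamini-Hochberg adjustment across the whole table, and genes under 0.05 are called. Differences are E7386 minus DMSO. The fit was checked on simulated data. Arrays have no counted depth; their number limits precision, and the median SD within groups over members was 0.096.

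Members, lists and steps were chosen with earlier results of these data known. Members are all eligible to be named; other lists give up to 3 called genes per direction, with MYC and MKI67 always. The comparison with rows in the range of the members' levels was chosen after values were seen. So were the processome complexes, their further subunits and RUVBL1, MAX, KRT14, KRT5, DSG3, COL1A1 and CD14. Wells were not paired, since no label says that a replicate number marks a shared day or batch. Deviations from the group means correlated across genes at r = 0.051, 0.123 and -0.008 for same-numbered wells. For wells with different numbers r was -0.098 to 0.041. Alternatives were median centring, a second quantile normalization, dropping dim genes, array weights, a robust prior with an intensity trend, the replicate block, an ordinary two-sample test, and leaving out each well. Promoter bases come from RefSeq, build GRCh38.p14.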

Additional observations from a re-analysis of the deposited data

How the results depend on the processing

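Of 13 alternatives the 7 that kept all wells left 18 of the 19 member calls with median centring, 19 with renewed quantile normalization, array weights, an intensity trend or without dim genes, 13 with the ordinary two-sample test, and 14 with the replicate number as a block (4 higher and 10 lower, against 2000 higher and 1701 lower over all rows). Calls in addition numbered 5 without dim genes and 4 with the trend. Leaving out single wells gave 3 to 4 members higher and 6 to 10 lower, 1534 to 1978 rows higher and 1373 to 1657 lower, and a member median of -0.13 to -0.08. The signs of 5 uncalled members turned: with single wells left out TAF1D ranged from -0.25 to 0.021, TSR1 from -0.03 to 0.02, NOP2 from -0.23 to 0.068, PES1 from -0.037 to 0.07 and BOP1 from -0.08 to 0.049, and PES1 was -0.0016 with renewed quantile normalization. Among the members and the other genes refitted here, 106 results lost their call when a single well was left out. Fewer samples are fitted there; the cause of the other changes was not tested. Log2 values hold no signal over background, so dim members cannot be told from unexpressed genes.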
